A study of Mus musculus with 6 samples.

Results

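Nuclear pore proteins (nucleoporins), importins, exportins and the proteins of the Ran cycle were examined in A20 cells, a BALB/c mouse B lymphoma line, after stimulation with TGF-β, a cytokine that restrains the growth of B cells. The members are the genes on the Affymetrix whole-genome mouse array whose single symbol begins with Nup, Xpo, Ipo, Kpna or Kpnb followed by a digit, together with Ranbp1, Ranbp2, Ran, Rcc1, Rangap1, Cse1l, Tnpo1, Tnpo2 and Tnpo3. The rule reads gene names only. They came to 47 of the 18194 genes with 1 symbol, measured by 123 of the 45101 probe sets. All 6 arrays were used, 1 for each condition. Untreated cells received DMSO and no TGF-β, and a further unstimulated culture was kept for 24 h in SP600125, which inhibits JNK kinases. TGF-β was given for 12 h or 24 h with DMSO, and for 12 h or 24 h together with SP600125. No dose of either agent is given in the sources used here. Whether the 6 RNA samples came from separate experiments is not stated. All values are transcript levels in 1 cell line and say nothing of protein or of transport itself.

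The nuclear pore complex is a channel through the nuclear envelope built from many copies of each nucleoporin. Its outer rings are made of the Y-shaped Nup107 complex, its core of an inner ring around Nup93, and its barrier of nucleoporins rich in phenylalanine-glycine (FG) repeats, while filaments face the cytoplasm and a basket faces the nucleus. Importins carry proteins inward and exportins carry them outward, and the small GTPase Ran sets the direction: Rcc1 loads Ran with GTP on chromatin, and Rangap1 with Ranbp1 brings about GTP hydrolysis in the cytoplasm. Smad proteins, which carry the TGF-β signal, use this machinery; Nup153 and Nup214 bind Smad2, importins including Ipo7 and Ipo8 can bring Smads into the nucleus, and Xpo4 and Ranbp3 take part in their export. Dividing cells make new pores in interphase and reassemble all pores after each mitosis.

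The deposited values are 1 linear intensity per probe set and array, called a signal here. The probe set with the highest mean log2 signal stands for its gene. Lower values were raised to a floor of 74.2, the 50th percentile of the whole table, and log2 differences were taken on the floored scale. Of the 47 members, 45 were above the floor on all 6 arrays, Kpna7 on 5 and Nup210l on 2. The test covered the 11698 genes that exceeded the floor on 2 or more arrays, and all 47 members were among them. All 7 B cell markers measured were above the floor on every array, with a summed signal of 39985 to 64042. Of 5 T and NK cell markers 0 were above the floor on all 6 arrays, with sums of 103.4 to 278.4; of 4 myeloid markers 1 was, Csf1r, with sums of 398.6 to 525.5; and of 4 fibroblast markers 0 were, with sums of 193.5 to 298.4. One array, that of TGF-β plus SP600125 for 24 h (joint treatment), differed from the other 5 in its controls. Its 18S ribosomal RNA signal, the mean of 3 control probe sets, was 4291 against 370.9 to 651.4, and actin gave a 3′/5′ ratio of 1.89 where the others gave 1.25 to 1.51. The part of this array's RNA quality in the results below was not tested, and the main counts and medians are also given without it.

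Each effect was estimated with limma in an additive model with TGF-β at 12 h, TGF-β at 24 h and SP600125 as terms. A TGF-β effect is thus averaged over the pair of arrays without and the pair with SP600125, and the drug effect over 3 pairs. SP600125 was present for 24 h on the unstimulated drug array and with TGF-β for 24 h, but for 12 h with TGF-β for 12 h. The 12 h pair with SP600125 therefore differs in drug time as well as in TGF-β. The model has no term for drug time, so its part in the 12 h and drug effects was not tested. The words rose and fell are used for genes with a Benjamini-Hochberg adjusted p under 0.05 over all 11698 genes, and errors after ± are standard errors. Because no condition was repeated, the error is how far arrays depart from an additive pattern, with 2 residual degrees of freedom, and p-values measure only that spread. As the RNA is from whole cultures, fewer cells of one kind and less RNA per cell cannot be told apart.

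Genes of the pore and of transport were lower after TGF-β in most cases, from scaffold nucleoporins such as Nup107 and Nup37 to receptors such as Ipo5 and the Ran regulator Ranbp1. At 24 h, 24 of the 47 members fell and 0 rose, 51.1% of the members against a background of 7.59% fallen and 9.16% risen among all genes tested. The members' median log2 effect was -0.46, with 40 of 47 (85.1%) below 0, while the median over all genes was 0.07, with 43.5% below 0. At 12 h the median was -0.31, with 38 of 47 (80.9%) below 0, beside 0.02 and 47.1% for all genes. At that time 3 members fell and 0 rose, where 2.5% of all genes fell and 2.74% rose. An unadjusted p under 0.05 was found for 20 members, all with an effect below 0. Among all 11698 genes it was found for 2555, of which 1164 had an effect below 0. In 24 of 47 members (51.1%) every one of the 4 TGF-β arrays was below both unstimulated arrays, against 12.2% of all genes. One member, Kpna4 (2.13%), had all 4 above both, against 15% of all genes. With array medians made equal the split of all calls at 24 h moved from 1072 risen and 888 fallen to 680 risen and 1327 fallen (5.82% and 11.4% of genes), that at 12 h from 320 and 292 to 231 and 450, and the members' count at 24 h became 29 fallen and 0 risen, the 24 among them. Quantile normalization gave 25 fallen, the 24 and Ran, where 7.76% of all genes fell and 8.57% rose. With genes above the floor on all 6 arrays, or with lower floors, Kpna4 was called as risen.

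**Figure D1:**
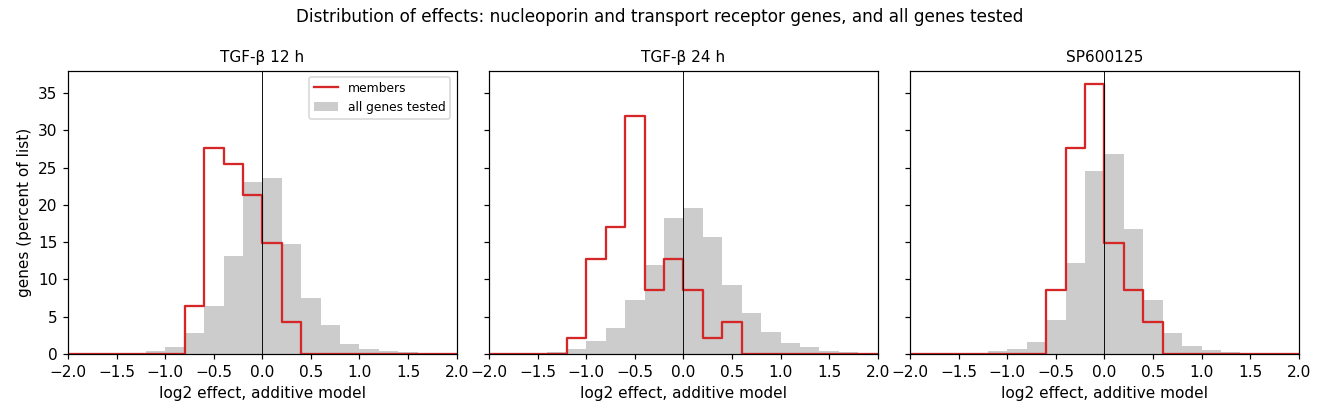
Share of genes (y axis, percent of the list) in each bin of the log2 effect (x axis) from the additive limma model, for the 47 members (red line) and all 11698 genes tested (grey bars), with panels for TGF-β at 12 h, TGF-β at 24 h and SP600125. The members' median lies at -0.31, -0.46 and -0.11 in the 3 panels, and that of all genes at 0.02, 0.07 and 0.04.

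The count at 24 h rests on few arrays. Without the array of joint treatment for 24 h the members' median effect at 24 h was -0.50 and 42 of 47 were below 0, so the size was as large without it. However, 0 members were called, as were 0 of all genes in either direction. Without the array of 24 h with TGF-β alone 0 members were called and the median was -0.43. Leaving out any of the other 4 arrays kept 3 to 8 members, each time with the missing condition's partner taken to vary like the other arrays and 1 residual degree of freedom. Without the array of joint treatment, Nup37 was at -0.92 ± 0.10, Nup107 at -0.97 ± 0.12, Ranbp1 at -0.77 ± 0.11 and Ipo5 at -0.66 ± 0.10 at 24 h. The 3 calls at 12 h ended when any single array was left out.

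**Figure D2:**
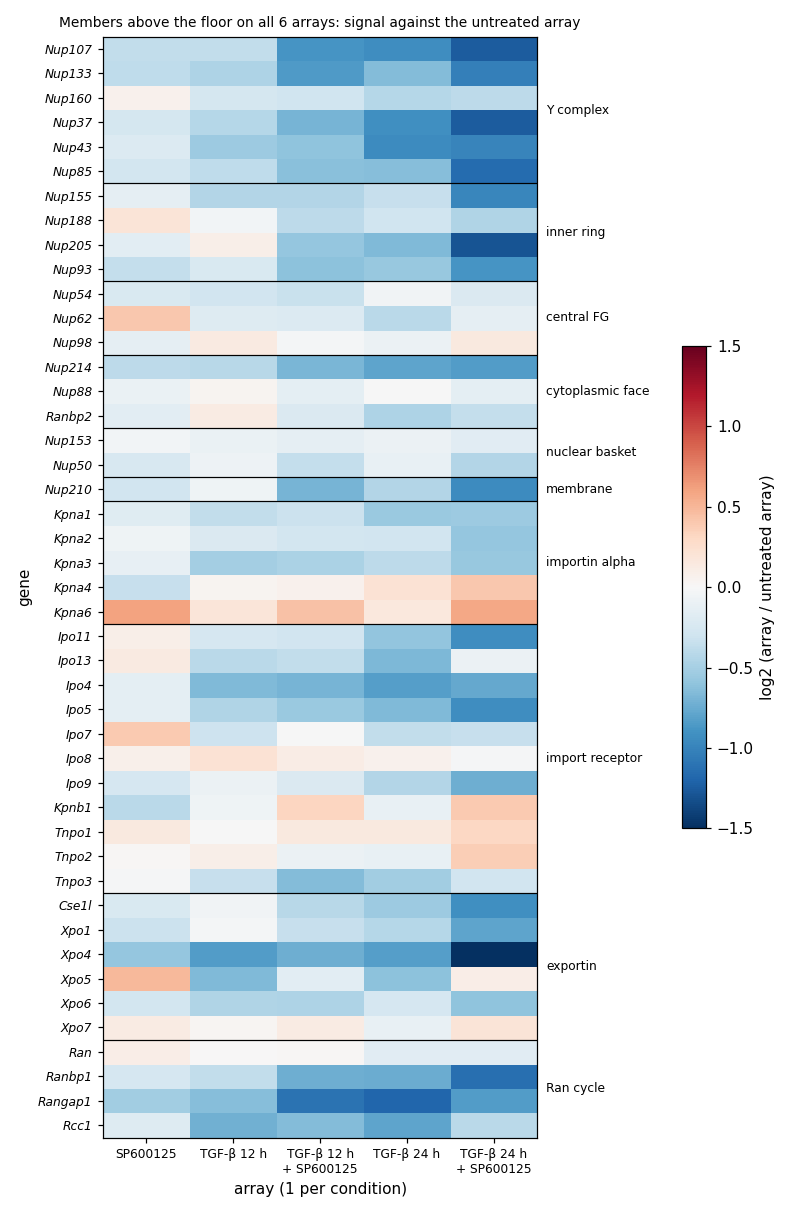
Log2 ratio of each array to the untreated array (colour) for the 45 members above the floor on all 6 arrays (rows, grouped by role) in the other 5 conditions (columns, 1 array each). Blue marks a signal under that of untreated cells; the 6 Y complex genes are blue on all 4 TGF-β arrays.

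Promoter sequences are shown for the 3 members with the smallest adjusted p at 24 h that had at least 100 bases before the start outside every annotated gene, since these fell together, and for Ran, whose main probe set was not called. They are the reference sequence of RefSeq, build GRCm38.p6, 5′ to 3′ on the gene's own strand. Capitals mark matches, on either strand, to CACGTG (E-box), CCAAT, GCGCATGCGC (the palindromic NRF1-type site), CCGGAAG (ETS-type) and TTTCCCGCC (E2F-type). Ranbp1 is shown over chr16:18248695-18248846 on the minus strand, Nup107 over chr10:117792737-117792955 on the minus strand, Nup205 over chr6:35177366-35177615 on the plus strand and Ran over chr5:129019906-129020155 on the plus strand.
Ranbp1: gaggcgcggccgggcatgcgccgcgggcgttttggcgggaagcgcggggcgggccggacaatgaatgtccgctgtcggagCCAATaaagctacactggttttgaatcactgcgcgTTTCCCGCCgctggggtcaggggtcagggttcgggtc
Nup107: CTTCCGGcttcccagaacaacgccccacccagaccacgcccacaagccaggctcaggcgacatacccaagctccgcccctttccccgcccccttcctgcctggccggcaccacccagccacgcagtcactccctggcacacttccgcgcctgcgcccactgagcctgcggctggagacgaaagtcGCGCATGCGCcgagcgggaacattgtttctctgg
Nup205: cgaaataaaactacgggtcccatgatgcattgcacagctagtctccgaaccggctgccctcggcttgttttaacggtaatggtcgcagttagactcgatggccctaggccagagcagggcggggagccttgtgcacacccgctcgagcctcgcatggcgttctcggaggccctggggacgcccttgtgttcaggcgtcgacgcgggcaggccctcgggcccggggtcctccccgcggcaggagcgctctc
Ran: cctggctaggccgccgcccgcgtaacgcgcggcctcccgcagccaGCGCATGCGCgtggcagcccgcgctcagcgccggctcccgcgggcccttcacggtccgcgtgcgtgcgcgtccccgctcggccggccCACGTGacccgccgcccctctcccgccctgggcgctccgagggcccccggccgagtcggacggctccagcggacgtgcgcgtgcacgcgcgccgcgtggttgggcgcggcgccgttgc
The Ranbp1 stretch holds CCAAT beginning 72 bases and TTTCCCGCC beginning 37 bases before the start. In Nup107 the NRF1-type palindrome begins 65 bases and an ETS-type match 250 bases before the start. The Ran stretch holds the same palindrome at 205 bases and an E-box at 118 bases before the start, and the Nup205 stretch holds none of these 5 motifs. Over windows from 250 bases before to 50 after the start, 38 of the 47 members had an entry, 19 of which fell at 24 h, and the share with each motif was set beside that of all 27025 genes in the table, non-coding genes included. The NRF1-type palindrome was in 5 of 38 members (13.2%; Nup107, Nup50, Nup62, Ran and Xpo5) against 1.07% of all genes, in 2 of the 19 that fell and 3 of the 19 others. CACGTG was in 8 members (21.1%) against 8.09%, CCAAT in 20 (52.6%) against 41.1%, CCGGAAG in 6 (15.8%) against 9.93%, and TTTCCCGCC in 2 (5.26%; Nup210 and Ranbp1) against 0.585%. Among the 19 that fell and the 19 others, CACGTG was in 3 and 5 and CCAAT in 11 and 9. CCGGAAG was in 4 and 2, and TTTCCCGCC in 2 and 0. GGGCGG, the GC box, was in 27 members (71.1%) against 38.2%, in 13 of the 19 that fell and 14 of the 19 others. TGANTCA, the AP-1-type site, was in 4 (10.5%) against 8.97%, in 2 that fell and 2 others. Each printed stretch holds GGGCGG on either strand, and that of Ranbp1 also holds TGANTCA beginning 51 bases before the start. Neither motif is marked by capitals. Whether any motif goes with the fall was not tested. TCTCGCGAGA, TTTGCGC and the Smad palindrome GTCTAGAC were in 0 members against 0.525%, 1.86% and 0.248%. The motifs were chosen after the sequences had been seen, overlaps between motifs were not removed, and a match is a description of letters only.

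All 6 measured members of the Y complex, the scaffold of the outer rings, fell at 24 h, with a median effect of -0.81. At 12 h all 6 lay between -0.47 and -0.31 and 0 were called, with an adjusted p of 0.0561 for Nup37 as the smallest. The signal of Nup107 was 2981 in untreated and 2307 in SP600125-treated cells, 2308 and 1561 with TGF-β for 12 h and 24 h, and 1609.9 and 1256 at 12 h and 24 h with both. Its 24 h arrays were the lowest 2 of the 6, at 52.4% and 42.1% of the untreated signal, and it fell by 0.91 ± 0.12 on the log2 scale (adjusted p = 0.00338). Nup37, a small subunit of the complex, gave 3992 in untreated and 3324 in SP600125-treated cells, 2963 and 2116 with TGF-β for 12 h and 24 h, and 2464 and 1679 at 12 h and 24 h with both. All 4 TGF-β arrays were below both unstimulated arrays, and each 24 h array was below its 12 h partner; Nup37 fell by 0.95 ± 0.11 (adjusted p = 0.00198, the smallest of the members). Nup85 read 5704, 4366 and 3674 after 0 h, 12 h and 24 h without SP600125 and 4701, 3691 and 2566 with it. It fell by 0.75 ± 0.11 (adjusted p = 0.00492) with no overlap between TGF-β and unstimulated arrays in this probe set. In its other probe set these arrays overlapped, with an effect of -0.23 ± 0.13 at 24 h (adjusted p = 0.271 in a limma fit of every probe set on its own). Nup43 fell by 0.86 ± 0.13, Nup133 by 0.65 ± 0.12 and Nup160 by 0.44 ± 0.10, with adjusted p-values of 0.00603, 0.00942 and 0.0225. Nup43 went from 1801 in untreated cells to 936.2 at 24 h of TGF-β, and from 1556 to 908.4 in the presence of SP600125; its other probe set had an effect of -0.42 at 24 h.

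**Figure D3:**
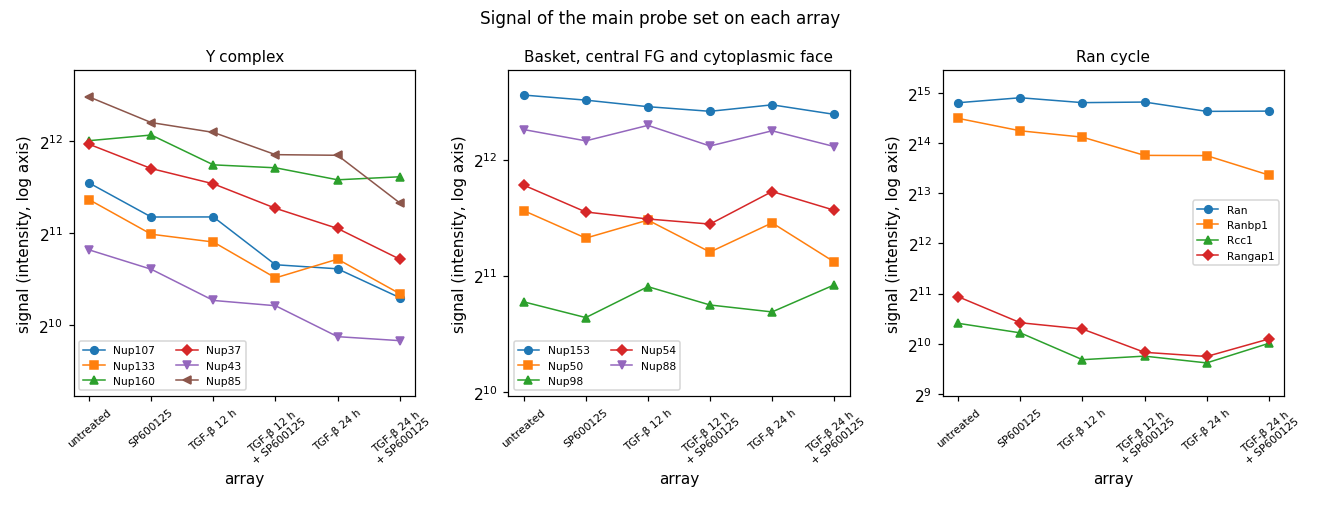
Signal of the main probe set (y axis, linear intensity on a log scale with base 2) on each of the 6 arrays (x axis, 1 array per condition) for the Y complex genes, for genes of the basket, central channel and cytoplasmic face, and for the Ran cycle. Lines join the arrays of a gene as a guide only and levels of different probe sets are not comparable; each Y complex gene has its lowest signal on a 24 h array, while Nup153 stays between 5364 and 6019.

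In the inner ring, which anchors the FG nucleoporins, 3 of 4 members fell at 24 h, with a median of -0.57, and 0 were called at 12 h. Nup205, one of its large scaffold proteins, gave 6944 in untreated and 6223 in SP600125-treated cells, 7395 and 4395 with TGF-β for 12 h and 24 h, and 4654 and 2839 at 12 h and 24 h with both. Its 12 h array without drug was the highest of the 6, and both 24 h arrays were the lowest. At 24 h it fell by 0.90 ± 0.14 (adjusted p = 0.00577), and with SP600125 its fold was 0.456 of the unstimulated array, past the 2-fold mark. Nup93, the hub of the ring, fell by 0.55 ± 0.10 and Nup155 by 0.60 ± 0.16, with adjusted p-values of 0.0119 and 0.041. Without the array of joint treatment for 24 h the Nup155 effect was -0.32 ± 0.12. Nup188 had an effect of -0.47 ± 0.20 and was not called (adjusted p = 0.148).

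Nucleoporins of the central channel, the cytoplasmic face and the basket gave 1 of 3, 1 of 3 and 0 of 2 members fallen at 24 h; whether these groups differ from the scaffold was not tested. Nup62, the FG protein of the central channel, fell by 0.47 ± 0.12 at 24 h (adjusted p = 0.0304), from 13469 to 10164 without and from 17829 to 12297 with SP600125. Its partner Nup54 had an effect of -0.02 ± 0.11. Nup98, an FG protein whose gene also encodes the scaffold protein Nup96, gave 1751 in untreated and 1594 in SP600125-treated cells, 1917 and 1649 with TGF-β for 12 h and 24 h, and 1718 and 1938 at 12 h and 24 h with both. Its TGF-β and unstimulated arrays overlapped, with effects of 0.12 ± 0.14 at 12 h and 0.10 ± 0.14 at 24 h (adjusted p = 0.69 and 0.687). Nup214, which docks messenger RNA for export on the cytoplasmic side, fell by 0.61 ± 0.13 (adjusted p = 0.02), from 2257 in untreated cells to 1307 at 24 h, while Nup88, its binding partner, had an effect of -0.03 ± 0.10. Ranbp2, the large filament protein that binds Ran and sumoylated Rangap1, read 3262, 3562 and 2375 after 0 h, 12 h and 24 h without SP600125 and 2929, 2797 and 2555 with it. Its 24 h arrays were the lowest 2, but the effect of -0.33 ± 0.13 was not called (adjusted p = 0.127). Without the array of joint treatment for 24 h it was -0.51 ± 0.12.

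Neither basket gene was called in its main probe set. Nup153, which tethers the basket to the pore, gave 6019 in untreated and 5839 in SP600125-treated cells, 5616 and 5678 with TGF-β for 12 h and 24 h, and 5462 and 5364 at 12 h and 24 h with both. All 4 TGF-β arrays lay below both unstimulated arrays, yet the whole range was 5364 to 6019, and the effects of -0.10 ± 0.09 at 12 h and -0.10 ± 0.09 at 24 h were not called (adjusted p = 0.606 and 0.503). A dimmer Nup153 probe set read 1103 in untreated cells and 716.9 at 24 h, with an effect of -0.45 ± 0.16 (adjusted p = 0.11) in a fit of every probe set on its own. Nup50, a mobile basket protein, had an effect of -0.16 ± 0.11 at 24 h in its main probe set. A dimmer Nup50 probe set read 1428.0 in untreated cells and 924.2 at 24 h, and fell by 0.54 ± 0.14 (adjusted p = 0.043) in that fit. The remaining Nup50 probe set had an effect of -0.15 ± 0.12. Nup210, a pore protein that spans the membrane, fell by 0.54 ± 0.13 (adjusted p = 0.0276), from 2318 to 1716 without and from 1903 to 1209 with SP600125. Nup210l, its paralog, was under the floor on 4 arrays and read 97.5 at 12 h of TGF-β and 152.0 at 24 h with SP600125, at least 2.05-fold over the unstimulated SP600125 array. With array medians made equal, or after quantile normalization, it was under 2-fold in that pair and in the drug pair at 24 h.

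Importin α adaptors, which bind the classical nuclear localization signal, fell in 2 of 6 cases at 24 h. Kpna2, the form abundant in dividing cells, gave 17817 in untreated and 17061 in SP600125-treated cells, 15329 and 14575 with TGF-β for 12 h and 24 h, and 14717 and 11929.5 at 12 h and 24 h with both. Both 24 h arrays were lowest within their arm and all TGF-β arrays were below the unstimulated ones. The fall was 0.40 ± 0.10 (adjusted p = 0.0315). Kpna1 fell by 0.46 ± 0.13 (adjusted p = 0.041). Kpna3 had an effect of -0.42 ± 0.13 that was not called (adjusted p = 0.0633). Its other 2 probe sets fell in the fit of every probe set, by 0.81 ± 0.15 and 0.66 ± 0.18 (adjusted p = 0.0109 and 0.0472). Kpna4 ran the other way in its main probe set, from 1794 and 1417 unstimulated to 2092 and 2369 at 24 h, an effect of 0.48 ± 0.15 (adjusted p = 0.0601), whereas its other probe set had an effect of -0.24. The main Kpna4 effect was 0.31 ± 0.17 without the array of joint treatment for 24 h. Kpna6 had an effect of 0.07 ± 0.17. Kpna7 was dim, at 158.0 in untreated cells and under the floor at 24 h of TGF-β, at most 0.470 of the untreated signal, and it was not called.

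Among the import receptors of the importin β family 5 of 11 fell at 24 h, and 2 of these had already fallen at 12 h. Ipo4, which imports ribosomal proteins and histones, gave 3897 in untreated and 3514 in SP600125-treated cells, 2454 and 2200.2 with TGF-β for 12 h and 24 h, and 2407 and 2292 at 12 h and 24 h with both. The 4 TGF-β arrays lay between 2200 and 2454, well under the 2 unstimulated ones. Ipo4 fell by 0.61 ± 0.11 at 12 h (adjusted p = 0.0229) and by 0.72 ± 0.11 at 24 h (adjusted p = 0.0057). The other Ipo4 probe set had effects of -0.52 ± 0.14 at 12 h and -0.39 ± 0.14 at 24 h. Neither was called (adjusted p = 0.0794 and 0.0979 in the fit of every probe set). Ipo5, a receptor for ribosomal proteins and histones as well, read 6258, 4570.0 and 3939.6 after 0 h, 12 h and 24 h without SP600125 and 5632, 4252 and 3292 with it. It was lower at 24 h than at 12 h in each arm, and fell by 0.43 ± 0.10 at 12 h (adjusted p = 0.0489) and by 0.72 ± 0.10 at 24 h (adjusted p = 0.00387). Ipo11 gave 2261 in untreated and 2408 in SP600125-treated cells, 1906 and 1506 with TGF-β for 12 h and 24 h, and 1848 and 1189 at 12 h and 24 h with both. Its 24 h arrays were lowest, at 0.666 of the unstimulated array without and 0.493 with SP600125, and it fell by 0.80 ± 0.14 (adjusted p = 0.00852). Ipo7, a receptor for ribosomal proteins and Smads, fell by 0.56 ± 0.11 and Ipo9 by 0.46 ± 0.13 (adjusted p = 0.0153 and 0.0413). Ipo8, the close paralog of Ipo7, had an effect of -0.01 ± 0.12, and Tnpo1 and Tnpo2, the receptors of proline-tyrosine signals, had 0.16 ± 0.11 and 0.12 ± 0.19. Tnpo3, the receptor of splicing factors rich in serine and arginine, was at -0.39 ± 0.14 and Ipo13 at -0.45 ± 0.18, with adjusted p-values of 0.102 and 0.125. The values without the array of joint treatment were -0.60 ± 0.15 and -0.70 ± 0.16. The other Tnpo3 probe sets had 24 h effects of 0.20 ± 0.13 and 0.05 ± 0.15 in the fit of every probe set.

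For Kpnb1, importin β itself, the result depended on the probe set. The brightest, whose name marks possible cross-hybridization to other transcripts, gave 4803 in untreated and 3642 in SP600125-treated cells, 4579.6 and 4453 with TGF-β for 12 h and 24 h, and 5994 and 6308 at 12 h and 24 h with both. It was higher in the arm with drug only, and its effects of 0.33 ± 0.20 at 12 h and 0.34 ± 0.20 at 24 h were not called (adjusted p = 0.389 and 0.282). A second Kpnb1 probe set read 6392 in untreated and 5949.5 in SP600125-treated cells, 4126 and 3602 with TGF-β for 12 h and 24 h, and 3896 and 4007 at 12 h and 24 h with both. There all TGF-β arrays were below both unstimulated arrays, with effects of -0.62 ± 0.11 at 12 h and -0.70 ± 0.11 at 24 h (adjusted p = 0.0254 and 0.0071 in the fit of every probe set). Another fell by 0.90 ± 0.16 (adjusted p = 0.0105) and the last had an effect of -0.11 ± 0.12. No direction is therefore given for Kpnb1.

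All 6 exportin genes had an effect below 0 at 24 h and 3 of them fell. Cse1l, the exportin that returns importin α to the cytoplasm, gave 9534 in untreated and 8137 in SP600125-treated cells, 9157 and 6532 with TGF-β for 12 h and 24 h, and 7134 and 5054 at 12 h and 24 h with both. At 12 h it was within 0.96 and 0.88 of its unstimulated partners, and at 24 h it was lowest in both arms, a fall of 0.62 ± 0.10 (adjusted p = 0.00592). Xpo1, the receptor of leucine-rich export signals, read 12668, 12447 and 9439 after 0 h, 12 h and 24 h without SP600125 and 10099, 9994 and 7307 with it. The effect was -0.02 ± 0.09 at 12 h, and at 24 h it fell by 0.45 ± 0.09 (adjusted p = 0.015). Xpo4, an exportin for the translation factor eIF5A and Smad3, gave 2255 in untreated and 1504 in SP600125-treated cells, 1266 and 1274 with TGF-β for 12 h and 24 h, and 1360.3 and 646.5 at 12 h and 24 h with both. Its array of joint treatment for 24 h was far under the other 5, at 28.7% of the untreated signal and 0.430 of its unstimulated partner. Xpo4 fell by 1.02 ± 0.23 (adjusted p = 0.0221), and the effect without that array was -0.65 ± 0.27. Xpo5, the carrier of microRNA precursors, had effects of -0.65 ± 0.16 at 12 h and -0.50 ± 0.16 at 24 h, neither called (adjusted p = 0.0529 and 0.0634). Its other probe set fell by 0.74 ± 0.18 at 24 h (adjusted p = 0.0336 in the fit of every probe set). Xpo6, which exports actin, was at -0.29 ± 0.13 and Xpo7 at -0.02 ± 0.11.

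In the Ran cycle, Ranbp1 and Rangap1 fell at 24 h, while Ran and Rcc1 were not called. Ranbp1, whose upstream stretch carries the CCAAT and E2F-type matches and which helps release Ran from transport receptors for hydrolysis, gave 23002 in untreated and 19373 in SP600125-treated cells, 17753 and 13757 with TGF-β for 12 h and 24 h, and 13799 and 10524 at 12 h and 24 h with both. The 4 TGF-β arrays were below both unstimulated arrays, down to 59.8% of the untreated signal at 24 h and 45.8% with SP600125 as well. Ranbp1 fell by 0.43 ± 0.09 at 12 h (adjusted p = 0.0409) and by 0.81 ± 0.09 at 24 h (adjusted p = 0.00217). Rangap1, the GTPase activator, read 1960.1, 1255 and 858.9 after 0 h, 12 h and 24 h without SP600125 and 1369, 909.8 and 1093 with it. Its lowest array was that of 24 h without drug, at 0.438 of untreated, but with SP600125 the 24 h array was above the 12 h one. The fall at 24 h of 0.76 ± 0.22 only just passed (adjusted p = 0.0476). The Rangap1 effect was -0.34 without the array of 24 h of TGF-β alone and -1.18 without that of 24 h with SP600125. In the fit of every probe set the main Rangap1 one was not called at 24 h (adjusted p = 0.0524). The other Rangap1 probe set above the floor on all 6 arrays had an effect of -0.43 ± 0.16 (adjusted p = 0.12). Rcc1, the nucleotide exchange factor on chromatin, gave 1358 in untreated and 1190.1 in SP600125-treated cells, 821.8 and 786.0 with TGF-β for 12 h and 24 h, and 863.2 and 1029 at 12 h and 24 h with both. All TGF-β arrays were below both unstimulated ones, with effects of -0.59 ± 0.17 at 12 h and -0.50 ± 0.17 at 24 h that were not called (adjusted p = 0.094 and 0.0901).

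Ran itself differed little between arrays in its brightest probe set, which gave 28549 in untreated and 30581 in SP600125-treated cells, 28582 and 25335 with TGF-β for 12 h and 24 h, and 28815 and 25428 at 12 h and 24 h with both. The 24 h arrays were the lowest 2, at 88.7% and 89.1% of untreated, and the effect of -0.22 ± 0.09 was not called (adjusted p = 0.152). That probe set is also of the kind open to cross-hybridization. The main probe sets of Nup107, Nup43, Nup62, Kpna1 and Ipo9, which fell at 24 h, carry the same mark. When only unmarked probe sets were used, Nup62 kept its call at 24 h and Nup43, Kpna1 and Ipo9 lost theirs. Nup107 has no unmarked probe set. A Ran probe set without this mark read 3746 in untreated and 4021 in SP600125-treated cells, 2597 and 2330.4 with TGF-β for 12 h and 24 h, and 2742 and 2470.0 at 12 h and 24 h with both. There the TGF-β arrays were clearly apart from the unstimulated ones, with effects of -0.54 ± 0.11 at 12 h and -0.69 ± 0.11 at 24 h (adjusted p = 0.0345 and 0.0062 in the fit of every probe set). The other 3 probe sets above the floor on all 6 arrays had effects between -0.13 and 0.12 at 24 h. Ran has near-identical processed copies in the genome, so its level is uncertain. Ran was called lower at 24 h after quantile normalization, and both Ran and Kpnb1 when only probe sets without the mark were used, an alternative chosen after seeing the data.

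**Figure D4:**
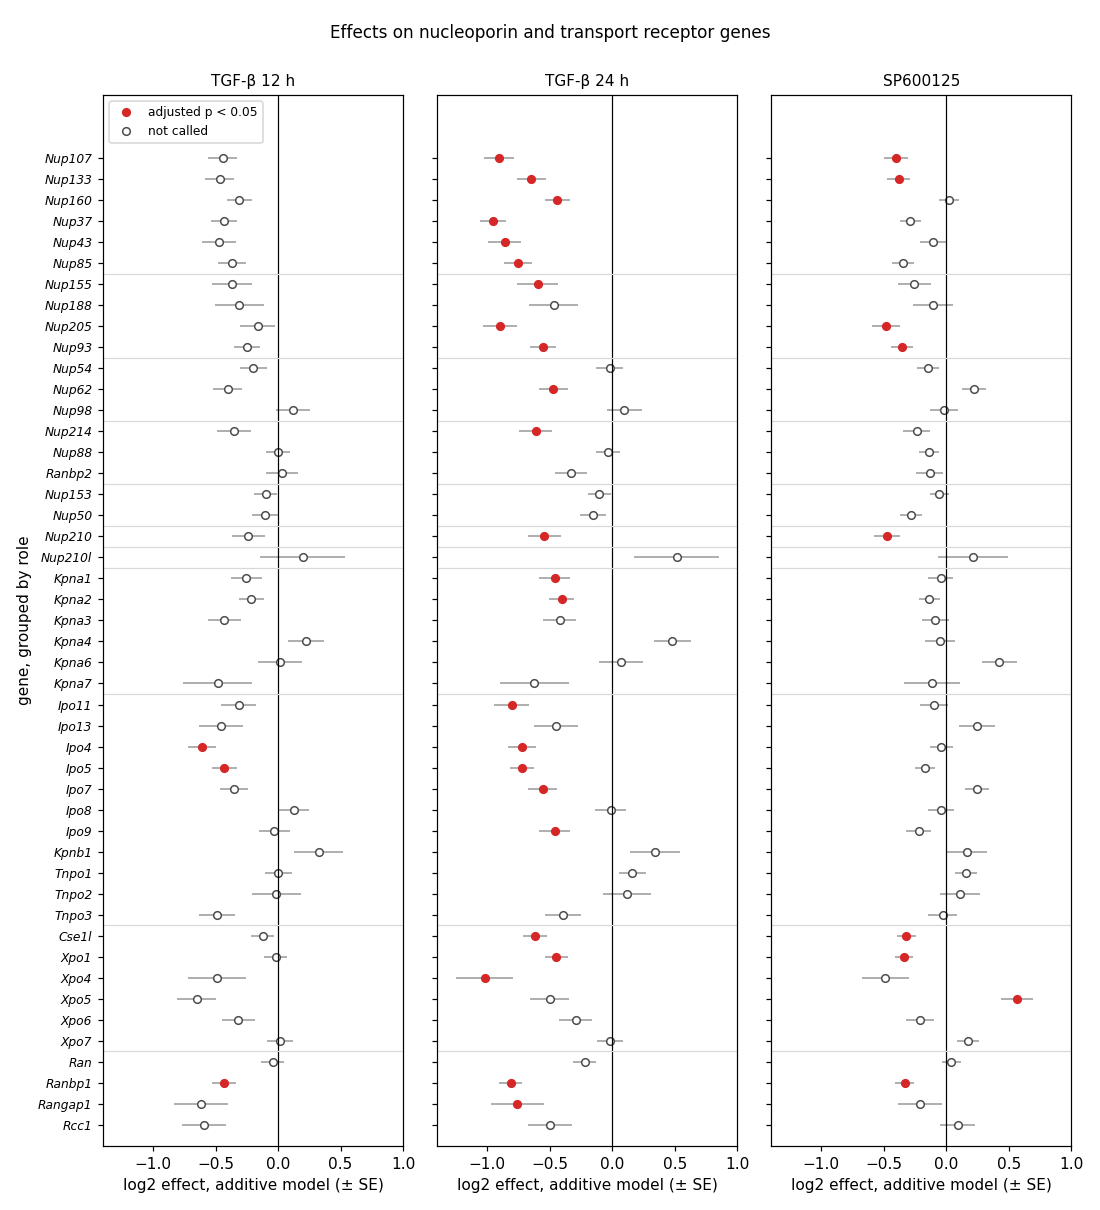
Log2 effect with its standard error (x axis) for the 47 members (y axis, grouped by role) from the additive limma model, with panels for TGF-β at 12 h, TGF-β at 24 h and SP600125; filled red points have an adjusted p under 0.05. At 24 h 24 points are filled, all left of 0, and all 6 of the Y complex are among them; with SP600125 9 are filled, Xpo5 being the one right of 0.

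Probe sets of a gene were compared where at least 2 were above the floor on all 6 arrays, which held for 31 members. In 24 of the 31 all probe sets had the same sign at 24 h. Among the members that fell at 24 h, 14 had such further probe sets, and in all 14 every one was below 0. Signs were mixed in 7 members, none of them called: Ranbp2, Kpna4, Kpnb1, Tnpo1, Tnpo2, Tnpo3 and Ran. Of 111 member probe sets tested one by one, 39 fell and 0 rose at 24 h. In that fit 6.39% of all 21238 probe sets fell and 6.76% rose. Both Nup205 probe sets fell, with effects of -0.90 and -1.48, and so did the 4 Nup62 probe sets above the floor on all 6 arrays, with effects between -0.58 and -0.45. Another, dim Nup62 probe set was at -0.30 ± 0.24 (adjusted p = 0.462). Averaging a gene's probe sets left 12 members fallen at 24 h, 10 of them among the 24, and 0 at 12 h. The share of all genes called with that average is not given here.

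**Figure D5:**
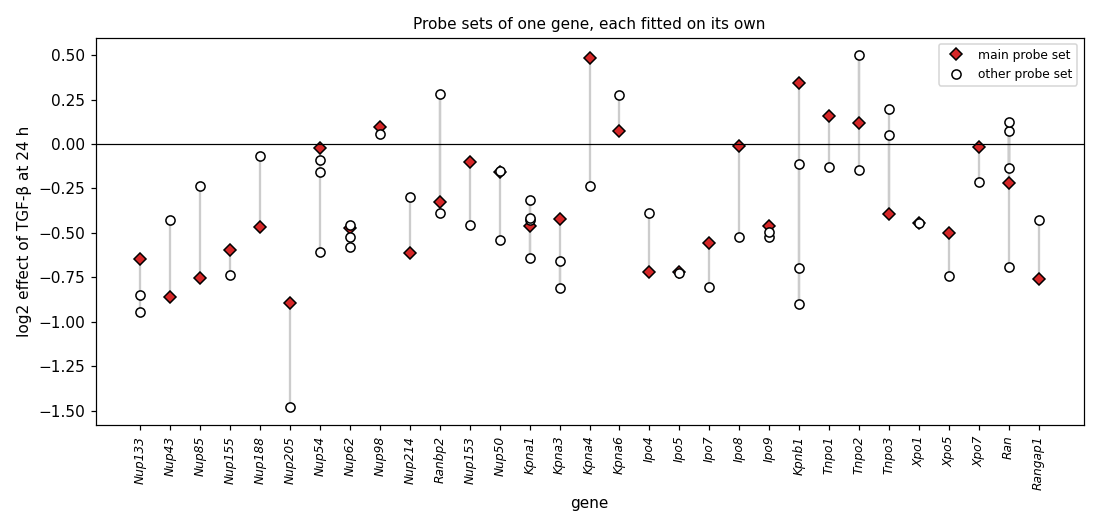
Log2 effect of TGF-β at 24 h (y axis) of every probe set above the floor on all 6 arrays, each fitted on its own, for the 31 members with at least 2 (x axis); red diamonds mark the probe set that represents the gene and open circles the others. In Kpnb1 the representing probe set, at 0.34, lies above the others, which reach -0.90; in Ran, at -0.22, it lies above 1 other, at -0.69, and below the remaining 3.

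Between 12 h and 24 h of TGF-β, 0 members were called, where 0.0684% of all genes rose and 0.0256% fell. Of the members, 15 had an unadjusted p under 0.05, all lower at 24 h. Of all 11698 genes 1796 did, 816 of them lower at 24 h. The members' median difference was -0.14, with 34 of 47 below 0, and that of all genes 0.04. The widest was Nup205 at -0.73 ± 0.14 (adjusted p = 0.0768), followed by Xpo4 at -0.53 ± 0.23, Nup37 at -0.52 ± 0.10, Cse1l at -0.49 ± 0.10 and Ipo11 at -0.49 ± 0.14. In their main probe sets Cse1l, Xpo1, Ipo9 and Nup205 had 12 h effects between -0.16 and -0.02 and fell at 24 h. The main Ipo4 probe set, at -0.61 and -0.72, was nearly as low at 12 h as at 24 h. In the fit of every probe set the other bright Xpo1 one was at -0.28 ± 0.10 at 12 h and -0.44 ± 0.10 at 24 h. At 12 h the other Ipo9 probe sets were at -0.32 ± 0.29 and -0.01 ± 0.22, and the other Nup205 one at -0.41 ± 0.27. The main Nup205 effect at 12 h averages 0.09 without and -0.42 with SP600125. Filters that change the variance prior gave 3 to 5 fallen members in this contrast: 4 with the floor at the 25th percentile, 3 with a floor of 1 and 5 among genes above the floor on all 6 arrays.

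With SP600125, averaged over the 3 TGF-β states, 8 members fell and 1 rose, where 3.76% of all genes fell and 4.15% rose. The members' median was -0.11, with 34 of 47 below 0, beside 0.04 for all genes. Nup205 fell by 0.49 ± 0.11 (adjusted p = 0.0384), Nup210 by 0.47 ± 0.11 (adjusted p = 0.0356), Nup107 by 0.40 ± 0.10 (adjusted p = 0.0442), Nup133 by 0.38 ± 0.09 (adjusted p = 0.0474) and Nup93 by 0.35 ± 0.09 (adjusted p = 0.045). Of the carriers, Xpo1 fell by 0.34 ± 0.07 (adjusted p = 0.0319) and Cse1l by 0.32 ± 0.08 (adjusted p = 0.0453), and in the Ran cycle Ranbp1 fell by 0.33 ± 0.08 (adjusted p = 0.038). All 8 also fell with TGF-β at 24 h, a comparison estimated from the same 6 arrays. In the fit of every probe set the main ones of Nup107, Nup133, Nup93, Cse1l and Ranbp1 were not called (adjusted p of 0.05035 to 0.0583). Those of Nup205, Nup210 and Xpo1 were called. A further Nup133 probe set fell in that fit (adjusted p = 0.0422). So did 1 dimmer probe set each of Nup155, Kpna3 and Tnpo1 (adjusted p = 0.0389, 0.0451 and 0.0359), genes whose main probe sets were not called. Xpo5 rose by 0.57 ± 0.13 (adjusted p = 0.0346). It read 970.4, 612.3 and 633.5 after 0 h, 12 h and 24 h without SP600125 and 1354, 870.7 and 1038 with it, higher with the drug in each of the 3 pairs. The other Xpo5 probe set read 822.7, 640.9 and 544.0 after 0 h, 12 h and 24 h without SP600125 and 946.3, 578.8 and 511.0 with it, an effect of -0.01 ± 0.15 (adjusted p = 0.975 in the fit of every probe set). The rise was thus seen in 1 of the 2 probe sets. The main Xpo1 probe set was steady from pair to pair, at 0.797, 0.803 and 0.774 of the array without drug without TGF-β and after 12 h and 24 h of it. The main Nup133 one was likewise at 0.771, 0.763 and 0.771. The other bright Xpo1 probe set had a drug effect of -0.21 ± 0.08 that was not called (adjusted p = 0.174 in the fit of every probe set). Nup37, Nup85 and Nup50 had effects of -0.29, -0.35 and -0.28 that were not called (adjusted p = 0.0832, 0.0559 and 0.0891), and Kpna6 and Ipo7 had 0.42 and 0.25 (adjusted p = 0.112 and 0.154). In the fit of every probe set the other Nup50 ones had 0.22 ± 0.09 and -0.19 ± 0.12. The other Nup85 probe set had -0.44 ± 0.10 (adjusted p = 0.0468) and the other Kpna6 one -0.04 ± 0.22. The dimmer Ipo7 ones had -0.12 ± 0.23 and -0.41 ± 0.22. Median scaling turned the split of all calls from 485 risen and 440 fallen to 349 and 678, with 11 members fallen and 0 risen. Leaving out any single array ended all 9 calls, and the members' median without the array of joint treatment for 24 h was -0.14.

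The TGF-β by SP600125 interaction tested whether the response to TGF-β differed with the drug, taking 12 h and 24 h as repeats of 1 state. In limma 0 members and 0% of all genes were called. At an unadjusted p under 0.05 there were 314 genes and 1 member, Kpnb1, at 0.84 ± 0.19 (adjusted p = 0.999) in the probe set discussed above. The members' median was -0.01, with 25 of 47 below 0. Ranbp1, Nup37, Nup107 and Xpo1 had interactions of -0.13 ± 0.35, -0.04 ± 0.45, -0.05 ± 0.43 and -0.02 ± 0.38, errors as wide as some of the TGF-β effects. This model counts the change from 12 h to 24 h as error, so a drug dependence of that size was not detectable with it. In single pairs at 24 h of TGF-β, these 4 genes were at -0.74, -0.92, -0.93 and -0.42 without SP600125. With it they were at -0.88, -0.99, -0.88 and -0.47.

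In single pairs of arrays, which have no test, members were rarely 2-fold apart. Without SP600125, 24 h of TGF-β gave a member median of -0.44, with 42 of the 46 members measured in that pair below 0 (all genes 0.07), and 2 members at least 2-fold lower and 0 higher, Rangap1 and Kpna7 being lower, against 1.95% of genes lower and 5.57% higher. With SP600125 the median was -0.44 with 39 of 47 below 0 (all genes 0.07). In that pair 3 members were 2-fold lower, Nup205, Ipo11 and Xpo4, and Nup210l was higher, against 1.96% of genes lower and 4.54% higher. At 12 h the medians were -0.25 without drug, with 36 of 47 below 0, and -0.28 with drug, with 39 of 46. No pair at 12 h held a member 2-fold apart, against 3.32% of genes higher and 1.49% lower without drug and 2.51% and 1.31% with it. The drug pairs had member medians of -0.16, -0.10 and -0.08 at 0 h, 12 h and 24 h, beside 0.05, 0.02 and 0.06 for all genes. Nup210l was the 1 member 2-fold apart, higher at 24 h, where 3.14% of genes were 2-fold higher and 1.93% lower. With array medians made equal, or after quantile normalization, 0 members were 2-fold higher and 1 was lower in that pair. With the drug alone 3.2% of genes were higher and 1.32% lower, and after 12 h 1.81% and 1.12%. By role, the Y complex medians at 24 h were -0.78 without and -0.82 with drug, and those of the basket -0.10 and -0.16. Equal array medians shifted all genes with TGF-β at 24 h and SP600125 from a median of 0.07 to -0.09 and their 2-fold split from 541 higher and 234 lower to 356 and 448. The members stayed 0.52 under the genes' median, as against 0.51. The splits without drug at 24 h went from 636 and 223 to 522 and 329, and those of the drug at 24 h from 375 and 230 to 238 and 322.

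Other genes of the pore and of RNA export, outside the naming rule, were counted beside the members. Of 32 measured, 6 fell and 1 rose with TGF-β at 24 h, where 7.59% of all genes fell and 9.16% rose, the median being -0.23. At 12 h limma called 0 of the 32, where 2.5% of all genes fell and 2.74% rose. An unadjusted p under 0.05 was found for 5 of the 32, 3 of them with an effect below 0. For all 11698 genes it was found for 2555, 1164 of them with an effect below 0. Sec13, a further Y complex subunit shared with the COPII coat, fell by 0.53 ± 0.10 (adjusted p = 0.0124), from 3937 to 2796 without and from 3151 to 2122 with SP600125. Alyref, which hands spliced messenger RNA to the exporter Nxf1, fell by 0.53 ± 0.10 and Thoc6, a subunit of the THO complex, by 0.61 ± 0.13 (adjusted p = 0.00969 and 0.0162). Rae1, an RNA export factor that binds Nup98, fell by 0.41 ± 0.10, Ranbp3 by 0.52 ± 0.13 and Xpot, the exportin of transfer RNA, by 0.42 ± 0.11 (adjusted p = 0.0297, 0.0347 and 0.0345). Nupl1, which encodes the Nup58 partner of Nup62 and Nup54, rose by 0.47 ± 0.10 (adjusted p = 0.0171). All 4 TGF-β arrays, at 4764 to 5286, were above the unstimulated 3777 and 3673. With SP600125, for which 3.76% of all genes fell and 4.15% rose, Alyref, Eny2, Ndc1 and Sec13 fell and Xpot rose by 0.64 ± 0.09 (adjusted p = 0.00645), from 5989 to 9162 in unstimulated cells.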

How the data were processed

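Total RNA of 6 cultures, 1 per condition, was hybridized to 1 array each. The deposited intensity values are linear signals made by the authors with GCOS 1.2, per the submitters' processing notes; the GCOS settings are not given in the sources, and on each array the 2% trimmed mean was 500.0. Detection calls were not used. Of 45101 probe sets 34958 had 1 symbol in the platform annotation, 932 several, and 9211 were not listed; all 123 member probe sets matched the reference gene table. Kpna5, Nup35 and Tpr were not analysed here.

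Signals under the 50th percentile were set to it, log2 was taken, and the brightest probe set by mean log2 stood for a gene. limma 3.58.1 in R 4.3.3 (lmFit, eBayes with an intensity trend) was fitted to 11698 genes; the additive model had 2 residual and 6.09 prior degrees of freedom, and the interaction model a prior of 2.84. It was tested on simulated data. Pairs of arrays were compared at 2-fold. The number of arrays limits the precision. Full values are given for a fixed set of Ran cycle and receptor genes, the 6 smallest adjusted p-values per contrast and members 2-fold apart in a pair. The members and lists were chosen with earlier results of these data known. Alternatives covered the floor, filter, scaling, probe set rule, trend and each array left out. Promoters came from RefSeq.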

Additional observations from a re-analysis of the deposited data

How the results depend on the processing

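Of 36 named calls, 0 reversed under an alternative that gave a value; 36 held with a lower floor and with genes above the floor on all 6 arrays, 35 with median scaling, 30 with quantile normalization, 16 with no filter on dim genes, 10 with the mean of all probe sets and 4 without the intensity trend. Restricting genes to probe sets without an x or s suffix, an alternative chosen after seeing the data, left 30 calls, ended 4 and gave no value for the 2 of Nup107. The 4 were Ipo9, Kpna1 and Nup43 at 24 h and Ipo5 at 12 h. At 12 h the 3 member calls became 8 with the floor at the 25th percentile, 7 with a floor of 1, 11 with genes above the floor on all 6 arrays, 7 with median scaling, 5 without x or s probe sets, 5 over single probe sets, and 0 with no filter, the mean of probe sets or no trend. The 24 at 24 h became 16 with no filter, 12 with the mean, 4 without the trend and 39 over probe sets, where 6.39% of all probe sets fell. The share of all genes called is not given here for lower floors, other filters, the mean or no trend. It is also not given for a left-out array other than that of joint treatment for 24 h. Those counts thus cannot show whether the members' excess over all genes changed. The 0 for 24 h against 12 h became 4, 3 and 5 with the lower floors and the stricter filter. The 9 for SP600125 became 4 with quantile normalization, where 3.7% of all genes fell and 3.93% rose. They became 0 with no filter, the mean or no trend. Leaving out 1 array gave 0 to 0 calls at 12 h, 0 to 8 at 24 h and 0 to 0 for SP600125. Members 2-fold apart went from 0 to 1 at 12 h of TGF-β without drug and for the drug at 12 h with either lower floor, from 2 to 5 with median scaling and 1 with the mean at 24 h, and from 4 to 8 and 2 at 24 h with drug. The member median at 24 h with drug moved from -0.44 to -0.61 with median scaling and -0.33 with the mean, and that of the drug at 24 h from -0.08 to -0.21 and -0.19. The cause of these shifts was not tested, beyond the fewer arrays or genes that an alternative fits. No paired analysis was possible because of the lack of replicate numbers in the labels, with 1 array per condition, so no replicate block could be fitted; the additive model itself compares arrays within each drug setting.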
